A study of Solanum lycopersicum with 12 samples.

Results

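Of 10101 probe sets on an Affymetrix tomato array, 90 (0.891%) had clearly higher signal after salt in the tomato genotype Moneymaker and nearly the same signal in the genotype PI365967. They were chosen by group means of log2(signal + 16) after quantile normalization over all arrays. The mean of the salt arrays had to exceed that of the unstressed arrays by at least 1 in Moneymaker and to differ by at most 0.3 either way in PI365967. A difference of 1 is a doubling of signal + 16, which is more than a doubling of the signal itself where signal is low. Both salt differences, and with them the difference between genotypes under salt, therefore chose these probe sets and are given as a description, without a test. The level in unstressed plants is a measure the bounds do not name, and it was tested, although the unstressed arrays also enter both bounds.

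The 4 groups were Moneymaker after 5 h in nutrient solution with 200 mM NaCl, Moneymaker after 5 h without NaCl (0 mM), and PI365967 in the same salt and unstressed conditions. All were whole hydroponic plants with 6 leaves. Each group had 3 arrays, each hybridised with RNA pooled from 3 plants, so a replicate is a separate pool of plants, and the labels number the pools 1 to 3 in each group. The labels give Solanum lycopersicum for all arrays. PI365967 is otherwise known as an accession of a wild, salt-tolerant tomato. How well probes of this array match PI365967 transcripts was not tested.

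A sudden rise of salt around roots acts on a plant in steps. Within hours the lowered water potential of the medium sets off hormone signals, among them abscisic acid and ethylene, and sodium reaches damaging levels in leaves later. Ethylene is made from S-adenosylmethionine through ACC, which ACC synthases form. When no ethylene is bound, the receptors keep a Raf-like kinase, CTR1, active, and this kinase represses the pathway, as worked out in Arabidopsis.

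Within groups, Pearson's r between arrays over all probe sets was 0.9909 to 0.9946, and the SD of 3 replicates had a median of 0.107 to 0.129 in log2 by group. Before normalization the array medians ran from 332.8 to 633.2 intensity units. Control values moved with the groups to different degrees. 25S ribosomal RNA, as log2 signal centred on each array's median, lay at 7.10 to 8.08 in salt Moneymaker, against 5.65 to 6.01 in unstressed Moneymaker. It lay at 5.87 to 7.34 in salt PI365967 and at 5.72 to 5.99 in unstressed PI365967, where the ranges overlap. 17S ribosomal RNA lay at 5.49 to 6.16 in salt Moneymaker, against 5.0 to 5.27 in unstressed Moneymaker, and at 5.02 to 5.97 in salt PI365967, against 5.3 to 5.68 in unstressed PI365967. On the same scale, 3 GAPDH control probe sets had group means of 12.87 to 13.11 in salt Moneymaker and 13.0 to 13.2 in unstressed Moneymaker, and of 12.85 to 13.02 in salt PI365967 and 13.21 to 13.41 in unstressed PI365967. The summed signal of 5 photosynthesis (leaf-leaning) probe sets was 22376 to 25190 in salt Moneymaker and 36382 to 42999 in unstressed Moneymaker, and 36210 to 37931 in salt PI365967 and 46632 to 48433 in unstressed PI365967. For 11 probe sets of nutrient transporters and root peroxidases (root-leaning), it was 12357 to 13348 in salt Moneymaker and 16768 to 17213 in unstressed Moneymaker. The same sum was 10514 to 11406 in salt PI365967 and 13620 to 14573 in unstressed PI365967. This sum leans most on the brightest of the 11, PT1, whose salt difference was 0.30 in Moneymaker and 0.01 in PI365967. By the limma test 7 of the 11 were lower and 2 higher under salt in Moneymaker, and 6 were lower and 1 higher in PI365967. The list also holds the sucrose transporters SUT2 and SUT4, so its sum is not taken as a share of root RNA. SUT2 was the 1 called higher in PI365967. No photosynthesis probe set had low signal in any group, and 2 of the 11 had low signal in each group. The part of these shifts in the results was not tested. In whole plants, fewer cells of a type and less RNA per cell cannot be told apart.

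In Moneymaker, 826 probe sets lay at least 1 higher under salt. Of these, 412 (49.9%) lay at least 1 higher in PI365967 too, and 317 (38.4%) lay between 0.3 and 1 higher there. The 90 described here made up 10.9%, and the remaining 7 (0.847%) lay more than 0.3 lower in PI365967. With the genotypes exchanged, the same bounds gave 17 probe sets, 3.32% of the 512 that lay at least 1 higher under salt in PI365967. With the sign turned, 26 probe sets lay at least 1 lower in Moneymaker and within 0.3 in PI365967.

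**Figure D1:**
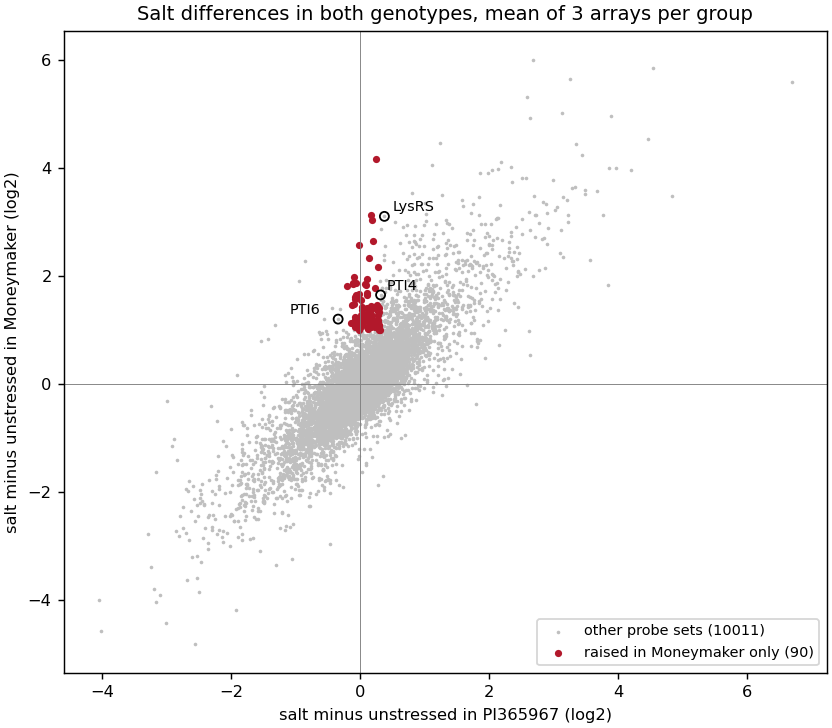
Salt minus unstressed difference of group means (log2, 3 arrays per group) in Moneymaker on the vertical axis and in PI365967 on the horizontal axis, 1 point per probe set. The 90 red points fill the box that chose them, from 1.0 to 4.16 in Moneymaker and from -0.21 to 0.30 in PI365967, and LysRS, PTI4 and PTI6 lie just outside it.

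The Moneymaker difference ran from 1.0 to 4.16 with a median of 1.28 on the log2(signal + 16) scale. It reached 1.5 for 23 probe sets, 2 for 7 and 3 for 3. In PI365967 the difference ran from -0.21 to 0.30 with a median of 0.12, positive for 68 probe sets and negative for 22. All 90 had their 3 salt Moneymaker arrays above their 3 unstressed ones, as did 29.1% of all probe sets, and the bound on Moneymaker favours this. In PI365967 the salt and unstressed arrays overlapped for 78 of the 90, against 43.6% of all probe sets, which the bound on PI365967 likewise favours. The other 12 had all salt PI365967 arrays above the unstressed ones, and their group means differed by 0.05 to 0.30.

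A near-level PI365967 mean is not a measured absence of change. The bounds of the limma 95% interval lay a median of 0.35 from the PI365967 difference, and for 47 of the 90 the interval reached 0.5 or beyond. The interval lies around a value that the choice holds near 0, so it gives the precision of 3 arrays per group and is no test of that value.

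The annotation pairs 7 of the 90 with a gene. CTR1, ACS7, Eix1, THOM1 and NML1 carry names, and LOC543684 and LOC544312 carry locus numbers only. The other 83 have no symbol in the annotation used. They are described by their place among the 90, and those drawn array by array carry their identifiers as panel titles. Gene symbols reach 9.0% of all probe sets and 7.78% of these. Unnamed probe sets described below were singled out after their values were seen, except those at the bounds.

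The first named gene with a known place in ethylene signalling was CTR1, the kinase that represses the pathway. Its log2 signal was 9.47, 9.53 and 9.49 in salt Moneymaker, against 8.27, 8.50 and 8.16 in unstressed Moneymaker. It was 8.69, 8.61 and 8.81 in salt PI365967, against 8.36, 8.64 and 8.73 in unstressed PI365967. The salt Moneymaker arrays stood apart from the other 9, and the PI365967 groups overlapped. Salt minus unstressed was 1.19 ± 0.11 in Moneymaker and 0.12 ± 0.11 in PI365967 (limma SE here and below, n = 3 arrays per group). The identifier of this probe set ends in _s_at, a form whose probes can match related transcripts. Another probe set, under the symbol TCTR1v that RefSeq lists as a synonym of CTR1, lay near the floor of the scale in every group, with group means of 4.05 to 4.31.

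ACS7, an ACC synthase, was measured at very low signal. Its log2 signal was 5.44, 5.45 and 5.36 in salt Moneymaker, against 4.09, 4.37 and 4.76 in unstressed Moneymaker. It was 5.20, 4.45 and 5.15 in salt PI365967, against 4.95, 4.23 and 4.74 in unstressed PI365967. The highest array was at 27.7 in linear normalized units and the lowest at 1.1. The salt Moneymaker arrays were the highest, but 2 salt PI365967 arrays came close to them. The salt difference was 1.01 ± 0.23 in Moneymaker and 0.29 ± 0.23 in PI365967, just inside both bounds. The size depends on the offset added before log2, with 2.41 in Moneymaker and 0.69 in PI365967 for an offset of 1, and 0.39 in Moneymaker for an offset of 64.

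Both genes belong to a list of ethylene synthesis, perception and response genes with 44 probe sets of 41 genes. In Moneymaker 24 of the 44 passed the limma test as higher under salt and 9 as lower, against 26.0% higher and 31.0% lower of all probe sets. CTR1 and ACS7 are among the 24 by their choice. In PI365967 17 passed as higher and 8 as lower, against 23.3% and 24.0% of all. The median salt difference of the list was 0.31 in Moneymaker and 0.22 in PI365967, beside -0.05 and 0.00 over all probe sets. Since lists are built from gene symbols, at most 7 of the 90 could fall in any list. These 2 make up 4.55% of the ethylene list, beside 0.891% of all probe sets, and the other 17 lists held none of the 7. However, 14 of the 44 lay at least 1 higher under salt in Moneymaker, against 8.18% of all probe sets. The 2 are thus 2 of 14 such probe sets in the list, where the 90 are 10.9% of all such probe sets.

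The rest of the ACC synthases and of the CTR family are shown because they are the relatives of ACS7 and CTR1. ACS2, ACS3, ACS6 and ACS1A rose in both genotypes. ACS2 differed by 3.63 ± 0.18 in Moneymaker and 3.29 ± 0.18 in PI365967, and ACS6 by 2.95 ± 0.25 in Moneymaker and 0.72 ± 0.25 in PI365967. ACS4 rose in Moneymaker by 0.51 ± 0.14 and had a difference of -0.06 ± 0.14 in PI365967, which was not called. ACS5 and ACS8 were called in neither. Like ACS7, these genes had very low signal in every group. Group means were 4.25 to 4.78 for ACS4, 4.61 to 4.76 for ACS5 and 5.15 to 5.5 for ACS8. Among the CTR relatives TCTR2 rose by 0.52 ± 0.07 in Moneymaker and by 0.45 ± 0.07 in PI365967. CTR4 rose by 0.59 ± 0.11 in Moneymaker and had 0.25 ± 0.11 in PI365967, not called, and CTR3 passed in neither genotype.

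Eix1 encodes a receptor-like protein with leucine-rich repeats that binds a fungal xylanase known to induce ethylene. Its log2 signal was 10.72, 10.37 and 10.60 in salt Moneymaker, against 9.43, 9.81 and 9.35 in unstressed Moneymaker. It was 9.46, 9.73 and 9.72 in salt PI365967, against 9.59, 9.75 and 9.60 in unstressed PI365967. Only the salt Moneymaker arrays passed 10, and the other 3 groups shared 1 range. Its difference under salt was 1.03 ± 0.13 in Moneymaker and -0.01 ± 0.13 in PI365967.

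THOM1, a homeobox gene, had 7.14, 7.09 and 7.07 in salt Moneymaker, against 5.80, 5.80 and 6.22 in unstressed Moneymaker. It had 6.17, 6.61 and 6.60 in salt PI365967, against 6.27, 6.06 and 6.48 in unstressed PI365967. Salt Moneymaker was highest, the PI365967 groups overlapped, and no array reached 7.2 in log2. The salt difference was 1.16 ± 0.15 in Moneymaker and 0.19 ± 0.15 in PI365967. This probe set too ends in _s_at. The second THOM1 probe set had -0.30 ± 0.25 in Moneymaker and -0.13 ± 0.25 in PI365967, at group means of 4.30 to 4.68.

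NML1 had the smallest SE of the 7 annotated genes. Its log2 signal was 10.69, 10.64 and 10.52 in salt Moneymaker, against 9.33, 9.60 and 9.34 in unstressed Moneymaker. It was 9.04, 9.21 and 9.25 in salt PI365967, against 9.27, 9.32 and 9.17 in unstressed PI365967. The salt difference of NML1 was 1.19 ± 0.09 in Moneymaker and -0.09 ± 0.09 in PI365967, so the 95% interval in PI365967 was among the narrower ones.

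The pair with locus numbers differed in where PI365967 stood. LOC543684 had 9.08, 8.74 and 8.88 in salt Moneymaker, against 7.34, 7.83 and 6.84 in unstressed Moneymaker, and 6.88, 7.46 and 7.41 in salt PI365967, against 7.09, 7.25 and 7.38 in unstressed PI365967. Its salt difference was 1.56 ± 0.23 in Moneymaker and 0.01 ± 0.23 in PI365967, and PI365967 sat within the unstressed Moneymaker range. LOC544312 had 12.38, 12.47 and 12.09 in salt Moneymaker, against 10.23, 9.99 and 9.72 in unstressed Moneymaker, and 12.36, 12.24 and 12.26 in salt PI365967, against 12.36, 11.81 and 12.29 in unstressed PI365967. Here PI365967 held, in both conditions, about the level that Moneymaker reached under salt. The salt difference was 2.33 ± 0.16 in Moneymaker and 0.13 ± 0.16 in PI365967.

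**Figure D2:**
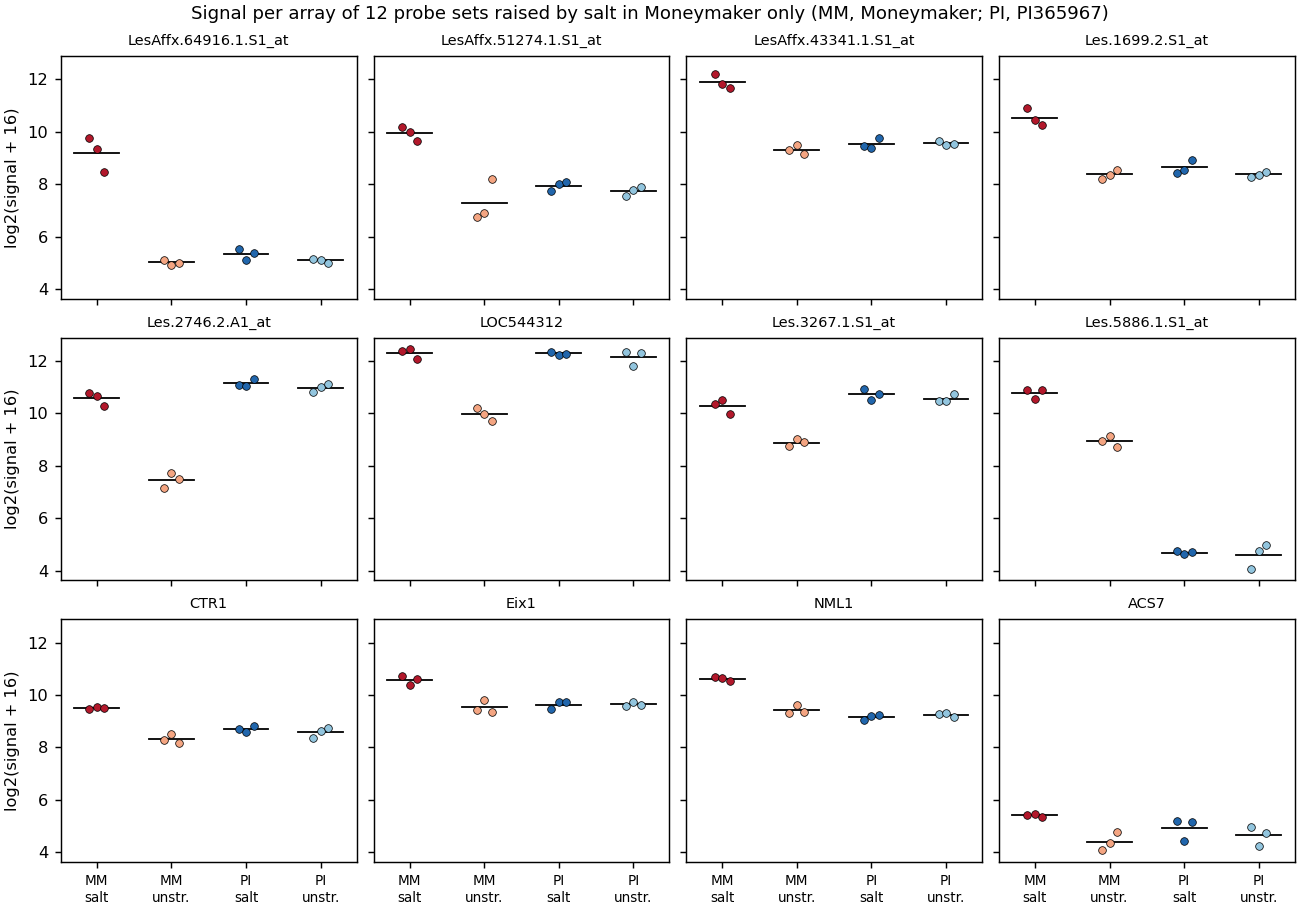
Log2(signal + 16) of 12 of the 90 probe sets in each array, with a bar at the mean of the 3 arrays of a group, and salt left of unstressed within each genotype. In the top row PI365967 lies close to the unstressed Moneymaker level, in the first 3 panels of the middle row at or above the salt Moneymaker level, and in the last panel of that row far below both.

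The unstressed comparison asked whether the genotypes already differed without salt. Of the 90, 24 (26.7%) were called lower in unstressed Moneymaker than in unstressed PI365967 (two-sided limma test, p adjusted by Benjamini-Hochberg over the whole array, called under 0.05), against 19.2% of all probe sets. Another 14 (15.6%) were called higher in unstressed Moneymaker, against 17.7% of all, and 52 were not called, where 36.8% of all probe sets were called in either direction. Neither share lay far from that of all probe sets. Among the 412 probe sets at least 1 higher under salt in both genotypes, 113 (27.4%) were called lower in unstressed Moneymaker and 98 (23.8%) higher.

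Large unstressed differences made up a larger share. A called difference of at least 1 was found as lower in unstressed Moneymaker for 12 of the 90 (13.3%), against 2.69% of all probe sets and 27 of the 412 (6.55%). It was found as higher in unstressed Moneymaker for 8 (8.89%), against 3.7% of all and 28 of the 412 (6.8%). Neither share is independent of the choice. A low unstressed Moneymaker mean also helps a probe set past the bound of 1, and 6 of the 8 had low signal in both PI365967 groups (defined below as a mean under 7.09), where the offset flattens the PI365967 difference. LOC544312 was the only one of the 7 annotated genes called, at -2.18 ± 0.16 for unstressed Moneymaker minus unstressed PI365967 (limma adjusted p = 2.14e-06). For CTR1 this difference was -0.27 ± 0.11 (limma adjusted p = 0.0799).

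Each of the 90 was then placed by its unstressed PI365967 mean on the way between the unstressed and the salt mean of Moneymaker. For 53, PI365967 lay in the lowest 25% of that way or below its start, close to or under unstressed Moneymaker. For 26 it lay between 25% and 75%, and for 11 above 75%, close to or above salt Moneymaker. The median levels of the 53 were 9.19 in salt and 7.67 in unstressed Moneymaker, and 7.52 in salt and 7.40 in unstressed PI365967. Those of the 26 were 9.47 and 8.27 in salt and unstressed Moneymaker, and 8.96 and 8.76 in salt and unstressed PI365967. For the 11 they were 10.28 and 7.91 in salt and unstressed Moneymaker, and 10.64 and 10.46 in salt and unstressed PI365967.

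**Figure D3:**
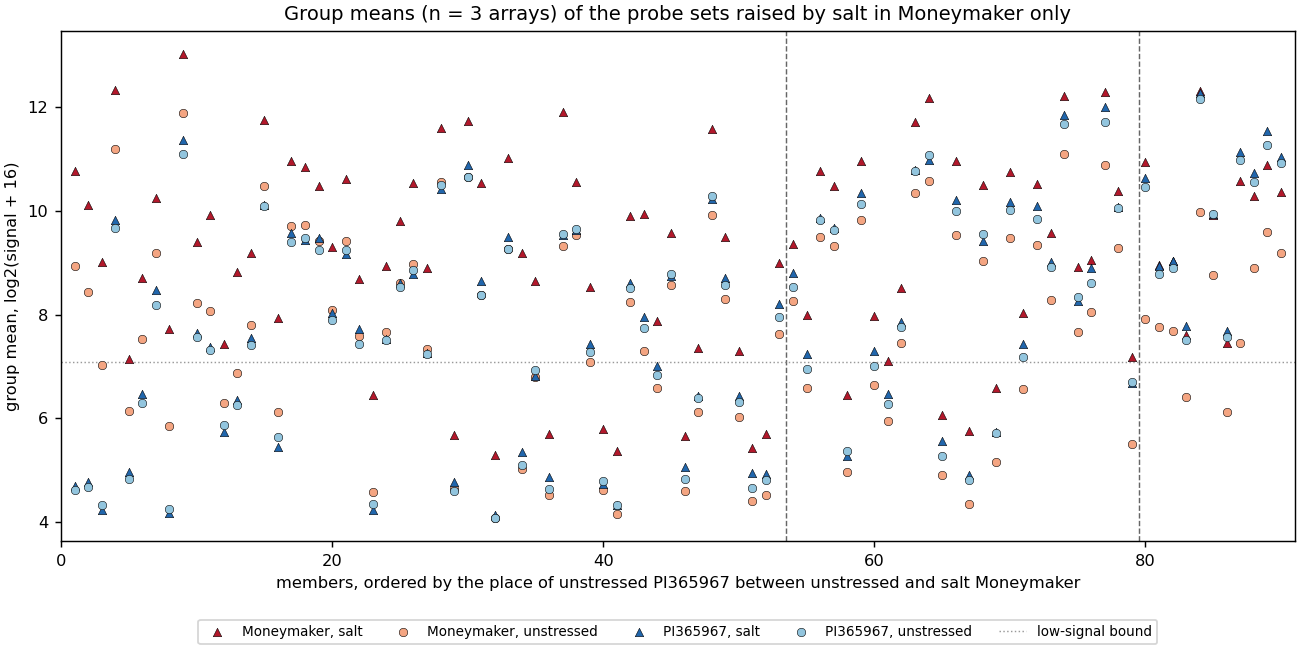
Group means (log2(signal + 16), n = 3 arrays) of the 90 probe sets, ordered from left to right by where unstressed PI365967 lies between unstressed and salt Moneymaker, with dashed lines after the 53 near unstressed Moneymaker and the 26 between. At the right the 11 remaining have both PI365967 means at or near the salt Moneymaker mean, and at the left several have both PI365967 means under the dotted low-signal bound of 7.09.

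The 11 probe sets in the last class come from 8 identifier stems, the part of the identifier before its second dot. All 11 were called lower in unstressed Moneymaker, with unstressed Moneymaker minus unstressed PI365967 at -3.53 to -1.01 in log2 and a largest limma adjusted p of 0.000764, and being in this class requires such a difference. The largest belonged to a stem with 2 probe sets and no symbol. The brighter of the pair in unstressed Moneymaker had 10.89, 11.21 and 10.74 in salt Moneymaker, against 8.03, 7.94 and 7.76 in unstressed Moneymaker. It had 10.47, 10.61 and 10.83 in salt PI365967, against 10.26, 10.55 and 10.56 in unstressed PI365967. Its salt difference was 3.04 ± 0.14 in Moneymaker and 0.18 ± 0.14 in PI365967, and 3 of the groups lay near 1 level with unstressed Moneymaker alone below.

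The other probe set of that stem stood even higher in PI365967. It had 10.79, 10.68 and 10.29 in salt Moneymaker, against 7.14, 7.72 and 7.52 in unstressed Moneymaker, and 11.08, 11.04 and 11.31 in salt PI365967, against 10.83, 11.01 and 11.12 in unstressed PI365967. Unstressed Moneymaker lay 2.55 ± 0.14 below unstressed PI365967 for the first (limma adjusted p = 1.45e-07). For the other, unstressed Moneymaker minus unstressed PI365967 was -3.53 ± 0.16 (limma adjusted p = 3.44e-08). This stem was singled out for its large difference, in a class that requires one, so neither adjusted p is separate evidence.

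Another stem gave 4 of the 90. For 3 of them the Moneymaker salt difference was 1.18 to 1.39 and unstressed Moneymaker lay 1.67 to 1.72 below unstressed PI365967. The one with the largest salt difference had 10.34, 10.52 and 9.98 in salt Moneymaker, against 8.74, 9.01 and 8.92 in unstressed Moneymaker, and 10.91, 10.53 and 10.74 in salt PI365967, against 10.46, 10.49 and 10.74 in unstressed PI365967. The salt Moneymaker mean of 10.28 lay a little under both PI365967 means, 10.73 in salt and 10.57 in unstressed PI365967. The fourth had a Moneymaker difference of 1.16, but its unstressed genotype difference was only -0.30. The class also holds LOC544312 and 5 unnamed probe sets with Moneymaker salt differences of 1.16 to 1.34.

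At the opposite end stood probe sets with little signal in PI365967. A group mean under 7.09, about 120 in linear units and the 25th percentile of all group means, is called low here. Of the 90, 29 (32.2%) were low in both PI365967 groups, against 22.5% of all probe sets. In unstressed PI365967 alone 31 (34.4%) were low, against 112 (27.2%) of the 412 that lay at least 1 higher in both genotypes. Of the 29, 13 were low in all 4 groups, which is 14.4% of the 90, against 19.9% of all probe sets. Another 13 were low in unstressed but not in salt Moneymaker, and 3 were low in PI365967 alone. In such probe sets the offset of 16 shrinks a PI365967 difference, and more so the closer the signal is to the floor. Some of the 29 lay near the floor in PI365967. Others lay not far under 7.09, such as one with 87.2 to 112.3 linear units over the PI365967 arrays.

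None of the 3 that were low in PI365967 alone has a symbol. The one with the largest salt difference had 1865, 1489 and 1869 linear units in salt Moneymaker, against 474.8, 548.6 and 409.1 in unstressed Moneymaker. It had 10.8, 8.7 and 10.4 in salt PI365967, against 0.7, 11.3 and 15.7 in unstressed PI365967. Every Moneymaker array lay far above every PI365967 array. Unstressed Moneymaker lay 4.33 ± 0.20 above unstressed PI365967 in log2(signal + 16) (limma adjusted p = 3.63e-08). With PI365967 near the floor that size is set by the offset, and it was 6.08 with an offset of 1 and 2.88 with an offset of 64. Being low in PI365967 alone requires unstressed Moneymaker to lie above unstressed PI365967, so the adjusted p is no separate evidence.

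A second probe set of its stem followed with 566.1, 415.8 and 533.9 linear units in salt Moneymaker, against 106.5, 131.3 and 105.8 in unstressed Moneymaker, and 0.2 to 8.0 in the 6 PI365967 arrays. The next of the 3 had 1008, 1244 and 1055 in salt Moneymaker, against 353.3, 255.9 and 392.8 in unstressed Moneymaker. It had 12.3, 13.6 and 8.4 in salt PI365967, against 14.8, 3.1 and 11.7 in unstressed PI365967. For these probe sets salt and unstressed PI365967 arrays overlapped near the floor of the array. The last of the 3 was less extreme, with 413.3, 344.6 and 450.9 in salt Moneymaker, against 150.5, 157.1 and 206.1 in unstressed Moneymaker, and 51.9 to 105.5 over the PI365967 arrays.

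With the offset of 16, the largest salt difference of the 90 belonged to a probe set with no symbol. Its log2 signal was 9.77, 9.34 and 8.46 in salt Moneymaker, against 5.13, 4.92 and 5.01 in unstressed Moneymaker. It was 5.54, 5.10 and 5.39 in salt PI365967, against 5.17, 5.12 and 5.00 in unstressed PI365967. In linear units the salt Moneymaker arrays had 335.4 to 854.8 and the other 9 had 14.3 to 30.6. The salt difference was 4.16 ± 0.25 in Moneymaker and 0.25 ± 0.25 in PI365967. The Moneymaker value was 5.03 with an offset of 1 and 2.98 with an offset of 64. It was near the floor in 3 groups and, even in the lowest salt Moneymaker array, far above them. Another probe set of the same stem missed the bound narrowly, with 1.00 ± 0.33 in Moneymaker and -0.09 ± 0.33 in PI365967.

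A pair of unnamed probe sets came next among those near unstressed Moneymaker. The brighter had 12.20, 11.82 and 11.69 in salt Moneymaker, against 9.31, 9.52 and 9.14 in unstressed Moneymaker, and 9.46, 9.39 and 9.78 in salt PI365967, against 9.63, 9.50 and 9.53 in unstressed PI365967. It was strong in every group and its salt difference was 2.58 ± 0.15 in Moneymaker and -0.02 ± 0.15 in PI365967. The dimmer had 10.20, 9.98 and 9.64 in salt Moneymaker, against 6.76, 6.92 and 8.19 in unstressed Moneymaker, and 7.73, 8.01 and 8.10 in salt PI365967, against 7.56, 7.79 and 7.88 in unstressed PI365967. A single unstressed Moneymaker array of the dimmer one reached above the PI365967 arrays, which leaves an SE of 0.31 on its difference of 2.65.

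Another unnamed stem was represented by 2 of the 90. The first had 10.93, 10.44 and 10.27 in salt Moneymaker, against 8.22, 8.37 and 8.56 in unstressed Moneymaker, and 8.43, 8.56 and 8.94 in salt PI365967, against 8.30, 8.34 and 8.49 in unstressed PI365967. The salt difference was 2.17 ± 0.17 in Moneymaker and 0.27 ± 0.17 in PI365967, and the second had 1.77 ± 0.21 in Moneymaker and 0.22 ± 0.21 in PI365967. Without salt, Moneymaker minus PI365967 was 0.01 for the first and -0.01 for the second.

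The 90 carry 81 identifier stems. More than 1 of them shared a stem in 7 stems, 16 probe sets in all. Probe sets of 1 stem may read the same or related transcripts, so they are not separate evidence. In 26 stems the array holds 41 further probe sets that the bounds did not take. Their median salt difference was 0.49 in Moneymaker and 0.01 in PI365967, and Moneymaker exceeded PI365967 in 32 of the 41. A single stem contributes 13 of them. Without it, 28 remain with medians of 0.71 in Moneymaker and 0.10 in PI365967, Moneymaker above PI365967 in 24, and low signal in all 4 groups for 14.

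Among the 41, 11 from 8 stems had a Moneymaker difference of at least 1, and all 11 lay 0.48 to 1.94 higher under salt in PI365967. That none of the 11 lay within 0.3 in PI365967 follows from the choice, which would have taken it. The largest of these differed by 4.47 ± 0.25 in Moneymaker and 1.23 ± 0.25 in PI365967, while its partner among the 90 had 1.22 ± 0.28 and -0.01 ± 0.28 at low signal in all groups. The next differed by 2.96 ± 0.20 in Moneymaker and 1.38 ± 0.20 in PI365967, against 1.18 ± 0.25 and 0.24 ± 0.25 for its partner, also at low signal. A further one differed by 1.89 ± 0.11 in Moneymaker and 0.48 ± 0.11 in PI365967, and another by 1.08 ± 0.13 in Moneymaker and 0.69 ± 0.13 in PI365967.

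Values near the Moneymaker bound and the upper PI365967 bound show how little separates the 90 from their neighbours there. Just inside the Moneymaker bound, 2 unnamed probe sets had 1.002 and 1.004, and just outside it 2 had 0.997 each. At the upper PI365967 bound, unnamed probe sets with 0.298 and 0.294 were inside, and others with 0.306 and 0.307 were outside. At the lower PI365967 bound the gap was wider. Unnamed probe sets with -0.206 and -0.149 were inside, and one with -0.320 and PTI6 with -0.345 were outside.

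LysRS, which encodes the enzyme that charges tRNA with lysine, fell outside the upper PI365967 bound. It had 11.49, 11.77 and 11.10 in salt Moneymaker, against 8.40, 8.79 and 7.86 in unstressed Moneymaker, and 10.04, 9.81 and 10.08 in salt PI365967, against 9.60, 9.74 and 9.47 in unstressed PI365967. Salt Moneymaker stood highest and unstressed Moneymaker lowest, with PI365967 between them. The salt difference was 3.11 ± 0.22 in Moneymaker and 0.37 ± 0.22 in PI365967, so the PI365967 value missed the bound by less than its SE. PTI4, a transcription factor of the ERF family, missed it too, with 1.65 ± 0.17 in Moneymaker and 0.31 ± 0.17 in PI365967.

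The same measure was also read in arrays that did not pick the probe sets. The bounds were applied to 2 arrays per group and the salt difference was read in the third, between arrays of the same number. The normalization was shared, the bounds were set with earlier results of these data known, and 1 array per group allows no test. Leaving out number 1, 2 or 3 chose 85, 93 and 105 probe sets, of which 64, 70 and 74 are among the 90. In the left-out arrays their median Moneymaker difference was 1.38, 1.21 and 1.19, and their median PI365967 difference was 0.17, 0.09 and 0.28.

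The left-out Moneymaker difference was at least 1 for 74 of 85 (87.1%), 69 of 93 (74.2%) and 70 of 105 (66.7%), against 9.24%, 7.94% and 8.85% of all probe sets. The left-out PI365967 difference was within 0.3 for 50 (58.8%), 60 (64.5%) and 49 (46.7%) of them, against 46.5%, 49.5% and 45.1% of all. The left-out PI365967 difference was at least 1 for 4, 1 and 3 of them. Both bounds held at once for 46 (54.1%), 46 (49.5%) and 31 (29.5%), against 1.25%, 1.18% and 0.921% of all. Moneymaker exceeded PI365967 in 83 of 85, 91 of 93 and 102 of 105. A Moneymaker difference of at least 1 was thus found again for most of the probe sets chosen. A PI365967 difference within 0.3 was found again more often than over the whole array without number 1 or 2, and about as often without number 3.

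**Figure D4:**
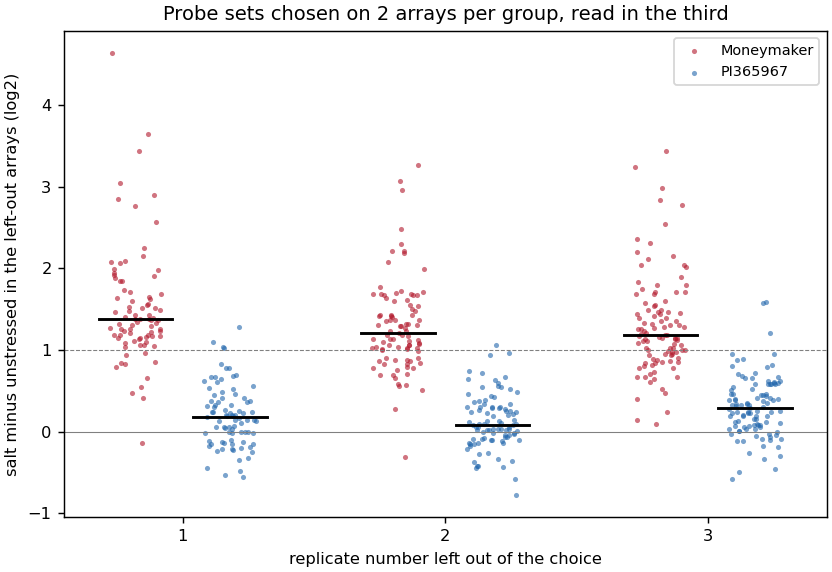
Salt minus unstressed difference (log2) in the arrays left out of the choice, 1 point per probe set, for Moneymaker and PI365967, with a black bar at the median and the replicate number left out on the horizontal axis. The Moneymaker medians are 1.38, 1.21 and 1.19, and the PI365967 medians are 0.17, 0.09 and 0.28, with PI365967 points scattered on both sides of 0.

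The authors' deposited second log2 values cover 8074 of the probe sets tested, 76 of them among the 90. In these values 70 of the 76 had a Moneymaker difference of at least 1, 62 had a PI365967 difference within 0.3, and 58 had both. The medians were 1.29 in Moneymaker and 0.14 in PI365967, and Moneymaker exceeded PI365967 in all 76. These values come from the same hybridisations, so they check the processing and not the biology.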

How the data were processed

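The values used are the intensity values the authors deposited, 1 linear value per probe set and array. How background was corrected and how probes were combined is not given in the sources used here. The second log2 values the authors deposited per genotype served only as an alternative. The 108 AFFX control probe sets were left out, and 63 reporter controls (none among the 90) stayed among the 10101 tested. Intensities became log2(value + 16) and were quantile normalized over 12 arrays. Limma 3.58.1 (R 4.3.3; lmFit, eBayes, 8 residual and 3.11 prior degrees of freedom) fitted 1 mean per group to all arrays. Precision is limited by the number of arrays, and the median SE of a difference was 0.114 over all probe sets and 0.159 over the 90. On simulated data, 48%, 88%, 96% and 98% of 50 probe sets each with an unstressed genotype difference of 0.5, 1, 1.5 and 2 were recovered, and false calls made up 8.33% of calls. Only these probe sets were changed, in unstressed Moneymaker alone, with normally distributed noise and no normalization step. In the real data 36.8% of all probe sets were called in this comparison, so these shares need not hold there.

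The bounds, members and gene lists were chosen with earlier results of these data known. Genes were named where the annotation gives 1 symbol, and symbols come from GEO's platform annotation (909 probe sets, 885 with a RefSeq entry in assembly SLM_r2.1). LysRS, the 2 probe sets nearest each bound on either side, and up to 3 genes of a list were added, and the relatives of ACS7 and CTR1 beyond that. No sequences are shown.

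The labels number the pools in each group. Deviations of same-numbered arrays from their group means correlated at 0.116, 0.129 and 0.162 between unstressed Moneymaker and unstressed PI365967, and at -0.132 to 0.162 over all 18 pairs. A fit with the replicate number as a block was an alternative, as were other normalizations, offsets, filters, bounds and leaving out each array.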

Additional observations from a re-analysis of the deposited data

Results flagged for a closer look

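Of 60 probe sets named or listed, 3 had all salt arrays above the unstressed ones in Moneymaker and all below them in PI365967. All 3 lie outside the bounds that chose the 90. Over the whole array, 29.1% of probe sets had all salt arrays above in Moneymaker, and 43.6% had overlapping arrays in PI365967. The share with both opposite separations was not counted, so how unusual 3 of 60 is cannot be told. PTI6, a transcription factor of the ERF family, had 10.93, 10.89 and 10.61 in salt Moneymaker, against 9.53, 9.65 and 9.64 in unstressed Moneymaker, and 9.31, 9.33 and 9.16 in salt PI365967, against 9.65, 9.56 and 9.62 in unstressed PI365967. Its salt difference was 1.205 in Moneymaker and -0.345 in PI365967, a gap of 1.55. An unnamed probe set next to it outside the lower PI365967 bound had 1.40 in Moneymaker and -0.32 in PI365967, a gap of 1.72. Another, just under the Moneymaker bound, had 0.997 in Moneymaker and -0.266 in PI365967, a gap of 1.26. PTI6 and the unnamed probe set next to it lay nearest outside the lower PI365967 bound. That place requires salt differences of opposite sign in Moneymaker and PI365967. The gaps were not tested, since all 3 probe sets were picked for lying next to the bounds or for a list drawn up with earlier results known.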

How the results depend on the processing

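With no normalization between arrays the bounds took 50 probe sets, 45 of them among the 90. Of the 90, 11 were then called lower in unstressed Moneymaker and 14 had unstressed PI365967 between the Moneymaker levels. In that setting the left-out Moneymaker medians were 1.11 without number 1 and 1.37 without number 3, and the left-out PI365967 medians were -0.21, -0.13 and 0.89. An offset of 1 gave left-out Moneymaker medians of 1.26 and 1.05 without numbers 1 and 2. Quantile normalization within each genotype put 15 in the between class. A Moneymaker bound of 0.8 took 143 probe sets and one of 1.2 took 53. Leaving out low-signal probe sets left 16 with low signal in PI365967, by construction. The ethylene list held 1 of the chosen probe sets in place of 2 with no normalization, an offset of 64, low-signal or _x_at and _s_at probe sets left out, or the second log2 values. Without each array in turn the bounds took 80 to 102, and the ethylene list held 1 to 3 of those taken. Of the 90 themselves, 21 to 27 were then called lower and 11 to 14 higher in unstressed Moneymaker. By the place of unstressed PI365967, 49 to 57 of the 90 lay near unstressed Moneymaker, 22 to 30 between and 11 to 12 near salt Moneymaker. Low signal in PI365967 was found for 29 of the 90 each time. With the replicate block 24 were called lower and 15 higher, and no call on an annotated gene changed. The share of all probe sets called is not given for these settings. Whether a changed count of calls is particular to the 90 therefore cannot be told. The call on NML1 (0.31, limma adjusted p = 0.0245) appeared with quantile normalization within each genotype. CTR1 was called without PI365967 unstressed replicate 1 (-0.38, adjusted p = 0.0222) or Moneymaker unstressed replicate 2 (-0.36, adjusted p = 0.0314), and THOM1 without Moneymaker unstressed replicate 3 (-0.47, adjusted p = 0.0307). The causes were not tested. In the settings run, the Moneymaker salt differences of the 7 annotated genes and the unstressed difference of LOC544312 had 1 sign throughout. Several PI365967 and uncalled unstressed differences changed sign, among them CTR1 without salt (0.05 with no normalization), as did 2 of the left-out PI365967 medians above.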
